A study of Mus musculus with 20 samples.

Results

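The effect of the Ahr knockout in multipotent progenitors (MPP) was compared with its effect in long-term haematopoietic stem cells (LT-HSC), gene by gene. Both deposited count tables were joined by row, and all 20 libraries entered 1 model with 4 groups of 5: WT LT-HSC, AhR-KO LT-HSC, WT MPP and AhR-KO MPP. The quantity reported is the interaction, the log2 fold change of AhR-KO over WT in MPP minus the same fold change in LT-HSC. A positive interaction means that the fold change was more positive in MPP. The comparison was repeated on 17 libraries, without replicate 1 of WT LT-HSC and replicates 2 and 3 of AhR-KO LT-HSC, which stand apart from their groups as described below.

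All mice were untreated, 8 to 12 weeks old and labelled with the strain C57BL/6. One genotype was wild type (WT) and the other carried a knockout of Ahr (AhR-KO), with an allele not given in the sources used here. Cells were bone marrow populations sorted by flow cytometry, with sort markers that are likewise not given. Libraries came from poly(A) RNA and keep no strand information, and the labels name no batch, date or litter. They number the libraries of a group but do not say that each came from a separate animal, so that p-values measure the spread between these libraries, which may in part be technical. In sorted bulk RNA, fewer cells of a type and less RNA per cell cannot be told apart.

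AHR, the aryl hydrocarbon receptor, is a transcription factor that rests in the cytosol with chaperones, enters the nucleus when bound by a ligand, pairs with ARNT and binds DNA at response elements with the core GCGTG. In blood formation it is known for restraining the expansion of stem cells and for shaping lineage choice. LT-HSC are mostly out of cycle and renew themselves for life, while MPP divide more and keep all blood lineages open with little self-renewal. The series asks which genes under AHR bear on stem cell function and division, and this comparison asks at which of these stages the knockout moved a gene more.

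The labelled populations differed in known markers in the direction of their names. Procr, a surface receptor of stem cells, had 59.2, 62.97, 61.6, 56.2 and 66.99 CPM (counts scaled to a common library total, here with TMM factors) in the WT LT-HSC libraries and 15.4, 20.8, 14.8, 17.5 and 16.99 CPM in WT MPP. Flt3, a cytokine receptor that appears on progenitors, had 43.3, 65.7, 53.8, 57.99 and 64.6 CPM in WT LT-HSC and 553, 552, 407, 416 and 473 CPM in WT MPP. Library totals ran from 13712668 to 21622653 counts. WT LT-HSC replicate 1 stood apart, with 0.386% of its counts from mitochondrially encoded genes against 1.07% to 1.26% in the rest of its group. The Spearman correlation over genes between a library's deviation from its group's mean log2 expression and exon length was -0.316 in it and 0.175 to 0.266 in the rest, deviations that add up to 0 within the group. Replicates 2 and 3 of AhR-KO LT-HSC held summed levels of 22 neutrophil genes of 1492 and 2027 CPM, against at most 283.7 CPM in the other replicates of that group.

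Counts over all genes gave a weak contrast. Of 17416 genes tested, edgeR called 0 for the interaction at an adjusted p under 0.05, which is 0.0%, and the lowest adjusted p was 0.296. At an unadjusted p under 0.05 there were 1125 genes (6.46%), 661 of them positive (3.8%) and 464 negative (2.66%). With 17 libraries, 0 of 18132 genes were called (0.0%) and 1152 had an unadjusted p under 0.05 (6.35%), 761 positive (4.2%) and 391 negative (2.16%). DESeq2 called 51 genes in the 20 libraries (0.293%), 30 of them positive (0.172%), and limma voom with sample weights called 18, all positive (0.103%). The tools shared 12 genes, 23.5% of the DESeq2 calls and 66.7% of the voom calls: Acap1, Akap8l, Ankrd16, Ccnl1, Clk1, Clk4, Jmjd6, Rrnad1, Sfxn4, Supt20, Tagap1 and Tbce. With 17 libraries DESeq2 called 49 (0.27%) and voom 0 (0.0%). Of the 51, 13 were immunoglobulin genes and 15 had a mean under 5 CPM. The edgeR values lead here, so no gene below is described as changed between the populations, and every adjusted p is over all genes tested.

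Few genes were called for the knockout in either population. In this model 14 genes were called for AhR-KO against WT in LT-HSC (0.0804%) and 5 in MPP (0.0287%). Of the 16 called in at least 1 population, 14 had fold changes of the same sign in both, against 52.7% of all genes, and 3 were called in both: Garnl3, Akr1c12 and the predicted gene Gm9200. The interaction had an unadjusted p under 0.05 in 8 of the 16, against 6.46% of all genes, with a lowest adjusted p of 0.296. The 16 were picked by fold changes that enter the interaction, which favours a small p, so this count is a description. With 17 libraries the calls numbered 5 in LT-HSC (0.0276%) and 8 in MPP (0.0441%), and the 2 called in both were Garnl3 and Apoe. At an unadjusted p under 0.05, 717 genes were above 0 (4.12%) and 822 below (4.72%) in LT-HSC, and 553 (3.18%) and 551 (3.16%) in MPP. With 17 libraries these were 400 (2.21%) and 812 (4.48%) in LT-HSC, and 826 (4.56%) and 912 (5.03%) in MPP. The MPP libraries were the same in both fits, so the higher MPP counts rest on no added MPP data. The common biological coefficient of variation, estimated over all groups, was 33.8% with 20 libraries and 28.4% with 17. The WT and AhR-KO libraries did not overlap for 597 genes in LT-HSC (3.43%) and 205 in MPP (1.18%). They did so in both populations in the same direction for 13 genes (0.0746%) and in opposite directions for 0 genes (0.0%).

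**Figure D1:**
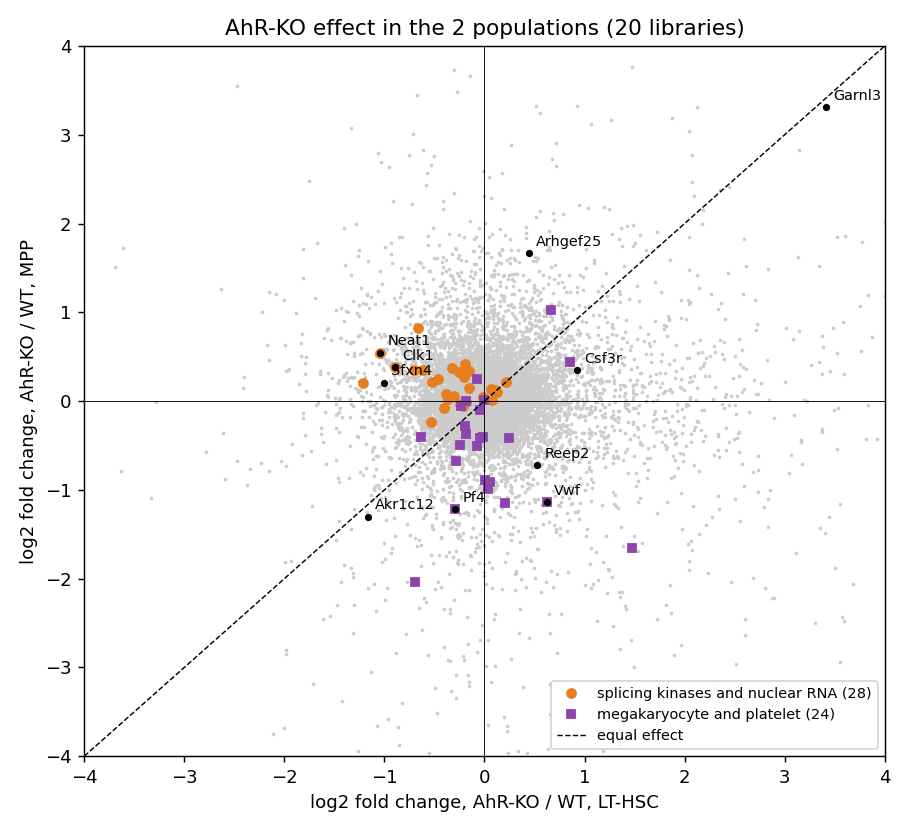
Log2 fold change of AhR-KO over WT in LT-HSC (x axis) and MPP (y axis), 20 libraries; each grey point is 1 of 17416 genes, and 101 genes lie beyond the axis limits of 4. Orange circles (28 splicing and nuclear RNA genes) lie mostly above the dashed line of equal effect, and purple squares (24 megakaryocyte and platelet genes) mostly below it.

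Every library held Ahr transcripts, so expression does not check the labels, and the libraries are called by them. In the order of replicate number (1, 4, 5, 6 and 8 in WT LT-HSC, 1, 2, 3, 4 and 7 in AhR-KO LT-HSC, 1 to 5 in MPP), which holds for all values by library, Ahr (chromosome 12, 35497974 to 35535038, GRCm38) had 22.1, 28.4, 20.8, 24.5 and 36.6 CPM in WT LT-HSC, 29.7, 21.7, 23.1, 18.5 and 24.9 CPM in LT-HSC labelled AhR-KO, 5.80, 14.2, 12.3, 10.2 and 6.45 CPM in WT MPP and 17.1, 9.80, 14.4, 19.01 and 19.2 CPM in MPP labelled AhR-KO. In LT-HSC the genotypes overlapped, and in MPP the libraries labelled AhR-KO were mostly higher, with 1 below 3 of the WT libraries. The log2 fold change was -0.17 ± 0.24 in LT-HSC and 0.70 ± 0.24 in MPP (± is the standard error for log2 values throughout). The interaction was 0.87 ± 0.34 (adjusted p = 0.701), and 0.87 with 17 libraries. It was 0.47 when WT MPP replicates 1 and 5 and AhR-KO MPP replicate 5 were left out as well.

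The partners and targets of the receptor showed no common shift. Of 15 tested genes of the pathway, 1 (Ahr) had a positive interaction with an unadjusted p under 0.05 and 0 had a negative one, with a median of -0.02 against 0.02 over all genes. Of all genes, 3.8% were positive and 2.66% negative at that level. Arnt, the partner that binds DNA with AHR, had -0.34 ± 0.32. Of 9 tested target genes, 1 was positive at that level and 0 negative, with a median of -0.20. That gene was Tiparp, a mono-ADP-ribosyltransferase that AHR induces and that limits the receptor in turn, at 0.47 ± 0.21 (adjusted p = 0.767). It had 33.3 ± 8.94 CPM in WT LT-HSC (SD, n = 5, as for all means in CPM), 25.5 ± 2.21 CPM in LT-HSC labelled AhR-KO, 31.9 ± 2.56 CPM in WT MPP and 33.7 ± 4.39 CPM in MPP labelled AhR-KO. Ahrr, the AHR repressor, had the widest error of the targets named here, at 2.18 ± 1.70.

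The clearest common pattern was in genes of pre-mRNA splicing control and nuclear RNA. Of 28 tested members of that list, 26 had a positive interaction, against 51.9% of all genes, and 12 had an unadjusted p under 0.05, all positive. Over all genes 3.8% were positive at that level. The median interaction of the list was 0.43. With 17 libraries it was 0.37, with 28 of 28 positive (50.3% of all genes were) and 10 at that level (4.2% of all genes). The median fold change was -0.28 in LT-HSC, where 23 of 28 were below 0 (51.4% of all genes were), and 0.18 in MPP, where 5 were (48.8%). With 17 libraries 50.4% of all genes were below 0 in LT-HSC and 49.0% in MPP. In each 20-library fit that left out 1 library the median lay between 0.34 and 0.48. In the 14 libraries whose number occurs in both populations it was 0.28, with or without a replicate block. The list was drawn up with earlier results of these data known, so its count is a description.

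Clk4, Ccnl1 and Jmjd6 are 3 splicing regulators among the 12 genes that both DESeq2 and voom called. All 3 were named for a small interaction p, which itself favours a shared order of values, and Jmjd6 is not in the list above. Their promoters are shown because AHR binds GCGTG. Each runs from 250 bases before the start to 50 after it (GRCm38.p6, RefSeq), 5′ to 3′ in the direction of the gene, with GCGTG and its reverse complement CACGC in capitals. Clk4 (chr11:51262864-51263163, plus strand) held 2 matches, Ccnl1 (chr3:65958200-65958499, minus strand) 4 and Jmjd6 (chr11:116843400-116843699, minus strand) 1.
Clk4: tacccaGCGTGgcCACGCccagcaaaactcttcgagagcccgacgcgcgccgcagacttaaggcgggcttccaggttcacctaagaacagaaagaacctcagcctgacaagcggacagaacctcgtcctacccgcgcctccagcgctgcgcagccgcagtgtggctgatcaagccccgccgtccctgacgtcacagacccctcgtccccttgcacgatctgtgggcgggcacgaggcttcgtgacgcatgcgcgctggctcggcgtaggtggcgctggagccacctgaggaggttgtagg
Ccnl1: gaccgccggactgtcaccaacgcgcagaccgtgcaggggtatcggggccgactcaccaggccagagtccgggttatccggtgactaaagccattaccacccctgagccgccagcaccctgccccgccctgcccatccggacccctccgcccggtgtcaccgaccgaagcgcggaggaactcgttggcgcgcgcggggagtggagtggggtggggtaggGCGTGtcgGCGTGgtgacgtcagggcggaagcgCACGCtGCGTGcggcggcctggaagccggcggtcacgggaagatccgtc
Jmjd6: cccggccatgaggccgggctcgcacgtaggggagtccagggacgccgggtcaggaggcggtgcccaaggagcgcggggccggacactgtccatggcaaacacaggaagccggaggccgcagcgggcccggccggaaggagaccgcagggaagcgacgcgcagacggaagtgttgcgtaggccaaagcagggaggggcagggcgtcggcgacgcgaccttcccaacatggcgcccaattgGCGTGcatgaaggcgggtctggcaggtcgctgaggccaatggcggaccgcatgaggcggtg
The motif is short and common. It stood in a promoter of 14 of the 26 genes that were named by the rule for leading genes and have an entry (53.8%), of 54.3% of the 10710 tested genes with an entry and of 35.2% of all 27025 genes with an entry, so these genes held it about as often as genes expressed in these cells. In the promoters of Clk2 and Ccnl2, described below and looked up as well, 3 and 0 matches were found. A match describes the letters only, not a site.

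Clk1, Clk2, Clk3 and Clk4 encode kinases that phosphorylate serine- and arginine-rich splicing factors, and all 4 had positive interactions. Clk4 (chromosome 11, 51261730 to 51281766) had 57.9, 66.6, 60.4, 81.4 and 78.98 CPM in WT LT-HSC, 47.6, 35.1, 39.5, 47.4 and 41.6 CPM in LT-HSC labelled AhR-KO, 101, 83.7, 70.996, 87.4 and 129 CPM in WT MPP and 154, 129, 88.96, 117 and 111 CPM in MPP labelled AhR-KO. In LT-HSC the libraries labelled AhR-KO were all below the WT libraries, and in MPP the genotypes overlapped. The fold changes were -0.71 ± 0.16 and 0.34 ± 0.16, and the interaction was 1.05 ± 0.23 (adjusted p = 0.296), with 1.001 in 17 libraries. Clk1 had 57.3, 108, 87.8, 127 and 142 CPM in WT LT-HSC, 74.4, 54.2, 46.3, 64.6 and 41.3 CPM in LT-HSC labelled AhR-KO, 177, 125, 118, 196 and 209.6 CPM in WT MPP and 267, 238, 151, 228 and 193 CPM in MPP labelled AhR-KO. The lowest WT LT-HSC library of Clk1 was replicate 1, which overlapped those labelled AhR-KO, and in MPP both genotypes overlapped. Its interaction was 1.28 ± 0.32 (adjusted p = 0.405), 1.34 in 17 libraries, but 0.62 with and 0.67 without the replicate block in the 14 libraries with a shared number. Clk2 had an interaction of 0.70 ± 0.18 (adjusted p = 0.468) and Clk3 of 0.36 ± 0.15 (adjusted p = 0.75).

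The L cyclins, which pair with CDK11 in splicing, showed the same order of values. Ccnl1 (chromosome 3, 65946151 to 65958249) had 75.3, 125, 123, 124 and 129 CPM in WT LT-HSC, 91.1, 76.5, 63.2, 78.8 and 67.9 CPM in LT-HSC labelled AhR-KO, 145, 138, 134, 151 and 162 CPM in WT MPP and 260.4, 196, 149, 176 and 152 CPM in MPP labelled AhR-KO. All WT LT-HSC libraries but replicate 1 lay above all those labelled AhR-KO, and in MPP the libraries labelled AhR-KO reached higher but overlapped WT. The interaction was 0.97 ± 0.22 (adjusted p = 0.324), and 1.01 ± 0.20 in 17 libraries (adjusted p = 0.321). Ccnl2 had 0.73 ± 0.25 (adjusted p = 0.598). Jmjd6, a hydroxylase and demethylase that acts on splicing factors, had 41.5, 38.99, 40.7, 41.8 and 46.6 CPM in WT LT-HSC, 36.4, 27.7, 28.97, 28.7 and 24.3 CPM in LT-HSC labelled AhR-KO, 48.03, 46.5, 40.8, 48.4 and 62.2 CPM in WT MPP and 63.1, 59.97, 51.6, 60.5 and 53.7 CPM in MPP labelled AhR-KO. In LT-HSC its genotypes did not overlap, in MPP they did, and the interaction was 0.75 ± 0.17 (adjusted p = 0.296). Jmjd6 was taken by its small p and is not a member of the list.

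Among the splicing factors themselves, the interaction was 0.71 ± 0.24 for Srsf5 (adjusted p = 0.598), 0.47 ± 0.19 for Srsf7 (adjusted p = 0.711), 0.39 ± 0.16 for Srsf11 (adjusted p = 0.718) and 0.47 ± 0.16 for Rbm39 (adjusted p = 0.598). Other members were near 0: Srsf1 had -0.03 ± 0.17, Srsf3 0.02 ± 0.11, Srsf6 0.00 ± 0.20 and Son -0.07 ± 0.20. The nuclear long noncoding RNAs had large and imprecise values. Neat1, the scaffold of paraspeckles, had 5.33, 18.7, 22.6, 24.3 and 24.8 CPM in WT LT-HSC, 14.3, 10.5, 5.50, 10.6 and 5.51 CPM in LT-HSC labelled AhR-KO, 35.00000, 18.03, 18.6, 46.9 and 56.4 CPM in WT MPP and 71.7, 63.2, 38.5, 50.5 and 31.9 CPM in MPP labelled AhR-KO, an interaction of 1.59 ± 0.55 (adjusted p = 0.598). Its WT LT-HSC replicate 1 held the lowest level of all libraries, and the MPP genotypes overlapped. Firre had 1.42 ± 0.64 (adjusted p = 0.767) and Malat1 0.61 ± 0.35 (adjusted p = 0.824). In the 14 libraries with a shared number Neat1 had 0.71 with and 0.87 without the replicate block, and Firre 0.36 and 0.51.

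Exon length moved with the fold changes and is given beside these genes, which are long: the median exon length was 7140.5 bases over the list against 3544 over the genes tested. The Spearman correlation of the AhR-KO fold change with exon length, across genes that are not independent replicates, was -0.118 in LT-HSC and -0.151 in MPP. With 17 libraries it was -0.299 in LT-HSC and -0.140 in MPP. Longer genes thus had lower fold changes in both populations, and in LT-HSC more so without the 3 libraries. The interaction itself had a correlation with length of -0.00591 in 20 libraries and 0.135 in 17. The summed level of the list in WT LT-HSC replicate 1 was 5106 CPM, inside the range of its group. Libraries of MPP also stood apart in length: the deviation from the group mean correlated with exon length at -0.326 in WT replicate 5, 0.259 in WT replicate 1 and 0.294 in AhR-KO replicate 5. The list summed to 8589 CPM in the first, the highest of its group, to 6408 CPM in the second and to 6810 CPM in the third, the lowest of its group. The median interaction of the list was 0.54 without these 3 and the 3 LT-HSC libraries. That range was 4943 to 5396 CPM, against 4312 to 4908 CPM in LT-HSC labelled AhR-KO, 6078 to 8589 CPM in WT MPP and 6810 to 9041 CPM in MPP labelled AhR-KO. The part of transcript length in the result was not tested further.

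**Figure D2:**
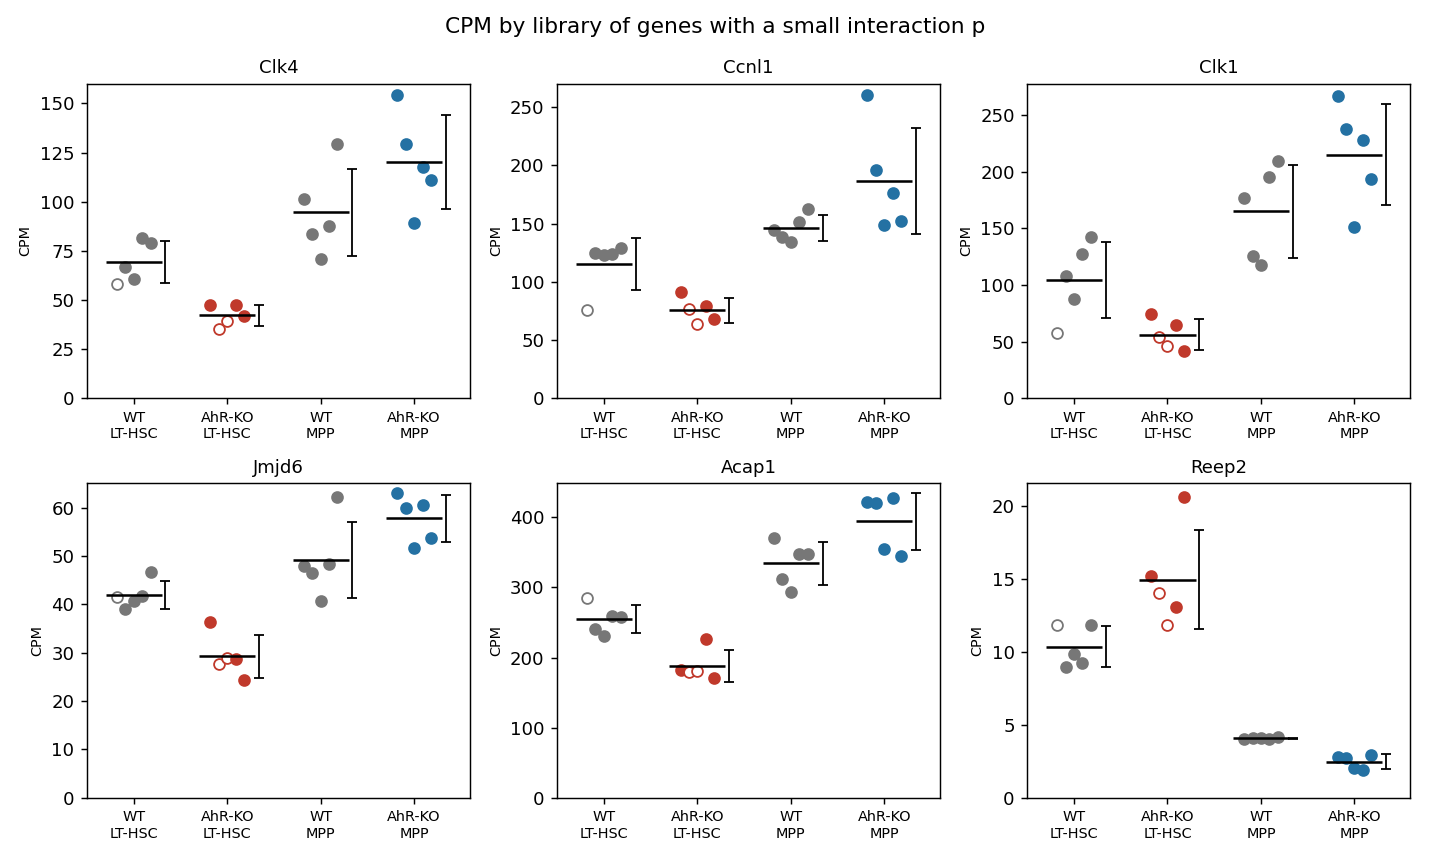
CPM by library of Clk4, Ccnl1, Clk1, Jmjd6, Acap1 and Reep2 in the 4 groups; points are libraries, open points the 3 LT-HSC libraries left out in the repeat, bars the mean and whiskers 1 SD (n = 5). The first 5 genes were lower in LT-HSC labelled AhR-KO and level or higher in MPP labelled AhR-KO, and Reep2 showed the opposite order.

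Outside that list, genes were taken by the smallest p among positive interactions. That choice itself favours lower values in LT-HSC labelled AhR-KO and higher values in MPP labelled AhR-KO, so their arrangement is a description. Acap1, a GTPase-activating protein for Arf6 in endosome recycling, had 285, 241, 231, 259.6 and 258 CPM in WT LT-HSC, 181, 179, 181, 227 and 171 CPM in LT-HSC labelled AhR-KO, 369.9, 313, 293, 347 and 347 CPM in WT MPP and 422, 421, 355, 428 and 344 CPM in MPP labelled AhR-KO. Its genotypes did not overlap in LT-HSC, and they overlapped in MPP. The interaction was 0.68 ± 0.13 (adjusted p = 0.296), and 0.59 in 17 libraries. Sfxn4, a mitochondrial protein needed for iron-sulfur clusters and complex I assembly, had 10.04, 6.76, 6.78, 7.61 and 8.17 CPM in WT LT-HSC, 4.11, 4.45, 3.46, 4.21 and 3.33 CPM in LT-HSC labelled AhR-KO, 6.82, 9.07, 5.72, 9.28 and 9.98 CPM in WT MPP and 9.69, 10.1, 9.69, 9.30 and 8.44 CPM in MPP labelled AhR-KO. The genotypes did not overlap in LT-HSC and overlapped in MPP. It fell by 1.01 ± 0.17 on the log2 scale in LT-HSC labelled AhR-KO (adjusted p = 0.0377), and its fold change in MPP was 0.21 ± 0.17. With 17 libraries the LT-HSC value was -0.91 and no longer called (adjusted p = 0.215). The interaction was 1.21 ± 0.24 (adjusted p = 0.296).

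Tbce, a chaperone for tubulin folding, had fold changes of -0.60 ± 0.13 in LT-HSC and 0.31 ± 0.13 in MPP, and an interaction of 0.91 ± 0.18 (adjusted p = 0.296). Supt20, a subunit of the SAGA chromatin complex, had 0.47 ± 0.12, and 0.57 ± 0.11 in 17 libraries. Ccdc84, which with Lrfn4 completed the 7 smallest p above 0, had means of 10.7 ± 1.55 and 5.87 ± 1.06 CPM in LT-HSC and of 19.7 ± 3.24 and 26.4 ± 8.39 CPM in MPP, WT first, for an interaction of 1.29 ± 0.28. Lrfn4, a synaptic adhesion molecule, differed from the others in that its larger fold change was in MPP, 0.79 ± 0.16 against -0.26 ± 0.16 in LT-HSC. In the 17 libraries the smallest p belonged to Zfp408, a zinc finger protein, with 1.51 ± 0.25 (adjusted p = 0.203) against 0.98 ± 0.34 in 20. Rgl2, an effector of Ras that activates Ral, had 0.72 ± 0.20 in 20 libraries and 0.85 ± 0.18 in 17. Clec2i, a lectin-like ligand, rests on few libraries: it had 0.25 ± 1.22 in 20 and 4.93 ± 1.01 in 17. In LT-HSC labelled AhR-KO, 3 libraries held at most 0.0606 CPM and replicates 2 and 3 held 2.72 and 3.20. WT LT-HSC libraries held 0.0951, 0.408, 0.102, 2.05 and 1.42 CPM, so that its LT-HSC values were low in both genotypes.

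Negative interactions came from genes that were higher in LT-HSC labelled AhR-KO, lower in MPP labelled AhR-KO, or both. Reep2, which shapes endoplasmic reticulum membranes, had 11.8, 8.98, 9.88, 9.22 and 11.8 CPM in WT LT-HSC, 15.2, 14.1, 11.8, 13.04 and 20.6 CPM in LT-HSC labelled AhR-KO, 4.03, 4.08, 4.12, 4.04 and 4.14 CPM in WT MPP and 2.81, 2.74, 2.04, 1.87 and 2.95 CPM in MPP labelled AhR-KO. WT MPP libraries lay within 4.03 to 4.14 CPM and those labelled AhR-KO all below them, while in LT-HSC those labelled AhR-KO were above WT except for replicate 3, which was level with the 2 highest WT libraries. The fold changes were 0.53 ± 0.17 and -0.72 ± 0.18, and the interaction was -1.25 ± 0.24 (adjusted p = 0.296), with -1.43 ± 0.27 in 17 libraries (adjusted p = 0.304). Tti1, a cofactor that stabilizes the mTOR and ATM family of kinases, had fold changes of 0.33 ± 0.13 and -0.41 ± 0.13 and an interaction of -0.74 ± 0.18 (adjusted p = 0.382). Timp3, an inhibitor of matrix metalloproteinases, had 19.5, 22.9, 32.7, 30.9 and 31.9 CPM in WT LT-HSC, 55.3, 35.6, 30.4, 33.4 and 28.4 CPM in LT-HSC labelled AhR-KO, 12.2, 11.1, 10.5, 5.50 and 1.93 CPM in WT MPP and 2.18, 0.649, 1.73, 3.19 and 4.17 CPM in MPP labelled AhR-KO. In LT-HSC its genotypes overlapped, and in MPP 3 of 5 WT libraries were above 10 CPM while no library labelled AhR-KO passed 4.17 CPM. Its interaction was -2.17 ± 0.57 (adjusted p = 0.468). Acsl1, which activates long-chain fatty acids, had -0.67 ± 0.18.

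For 3 of the 7 leading negative genes the value moved toward 0 by over 1.5 times without the 3 LT-HSC libraries that stand apart. Vsir, the immune checkpoint VISTA, had 35.03, 61.8, 68.7, 29.3 and 29.3 CPM in LT-HSC labelled AhR-KO and 14.3, 20.4, 20.6, 28.8 and 22.2 CPM in WT LT-HSC. Its interaction was -1.19 ± 0.32 in 20 libraries and -0.55 ± 0.19 in 17. Ceacam1, an adhesion molecule of myeloid cells, went from -1.44 ± 0.39 to -0.63 ± 0.25, and Ifi211, an interferon-induced nuclear protein, from -1.08 ± 0.28 to -0.71 ± 0.26. The genes with the smallest p below 0 in the 17 libraries included Ift80 of the intraflagellar transport complex at -0.65 ± 0.17, the lipid transporter relative Spns3 at -0.57 ± 0.16 and the biotin-recycling enzyme Btd at -0.65 ± 0.18. Spns3 had -0.27 ± 0.24 in 20 libraries and -0.57 in 17, with WT LT-HSC replicate 1 at 66.3 CPM against 27.9 to 35.1 CPM in the rest of its group.

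The series names Aurora A and the passage from G2 into mitosis, and here the comparison hinged on 1 library. Aurka, which encodes Aurora A, had 156, 57.9, 58.3, 50.5 and 54.6 CPM in WT LT-HSC, 54.9, 68.2, 74.1, 72.1 and 57.2 CPM in LT-HSC labelled AhR-KO, 137, 145, 113, 118 and 120.5 CPM in WT MPP and 87.2, 107, 128, 95.3 and 107 CPM in MPP labelled AhR-KO. Without replicate 1 the WT LT-HSC libraries lay between 50.5 and 58.3 CPM, close to those labelled AhR-KO, and in MPP 4 of 5 libraries labelled AhR-KO were below all WT libraries. The interaction was -0.07 ± 0.33 in 20 libraries (adjusted p = 0.986) and -0.42 ± 0.17 in 17 (adjusted p = 0.708). It was -0.51 without WT LT-HSC replicate 1 alone and 0.012 without AhR-KO LT-HSC replicates 2 and 3.

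Ccnb1, the cyclin that drives mitotic entry with CDK1, had 337, 118, 123, 103 and 103 CPM in WT LT-HSC, 107, 158, 144, 137 and 113 CPM in LT-HSC labelled AhR-KO, 438, 315, 251, 259 and 249 CPM in WT MPP and 171, 217, 238, 190.5 and 234 CPM in MPP labelled AhR-KO. As for Aurka, WT LT-HSC replicate 1 was far above its group, and all MPP libraries labelled AhR-KO were below all WT libraries. Its interaction was -0.28 ± 0.38 in 20 libraries and -0.62 ± 0.22 in 17 (adjusted p = 0.649), and -0.77 without that replicate alone. It was -0.12 without WT MPP replicate 1, and -0.18 without WT LT-HSC replicate 6 or 8. Plk1, the kinase that AURKA activates at mitotic entry, had -0.41 ± 0.37 in 20 libraries and -0.70 ± 0.23 in 17 (adjusted p = 0.582), -0.85 without that replicate alone and -0.27 without AhR-KO LT-HSC replicates 2 and 3. Cdk1 had -0.08 ± 0.17 in 20 libraries and -0.18 ± 0.12 in 17.

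Over the 62 tested genes of the G2/M list the median interaction was -0.10, with 17 above 0 (27.4%, against 51.9% of all genes). At an unadjusted p under 0.05, 1 was positive and 3 negative, against 3.8% and 2.66% of all genes. With 17 libraries the median was -0.29, with 10 above 0 (16.1%, against 50.3% of all genes). At that level 1 was positive and 9 negative, against 4.2% and 2.16% of all genes. The median was -0.32 without WT LT-HSC replicate 1 alone. The fold change in MPP was below 0 for 59 of 62 genes (48.8% of all genes were), with a median of -0.27. In LT-HSC 49 of 62 were below 0 (51.4% of all genes were) with a median of -0.12 in 20 libraries. With 17 libraries 33 were (50.4% of all genes), with a median of -0.01. The 3 negative genes of the 20-library fit were Top2a, which untangles DNA, at -0.47 ± 0.19, Ccna2, the cyclin of S phase and G2, at -0.43 ± 0.18, and the checkpoint kinase Bub1b at -0.45 ± 0.20. The positive gene was Pkmyt1, a kinase that holds CDK1 inactive, at 0.59 ± 0.18 (adjusted p = 0.553). The 43 genes of the S phase list had a median of 0.06, with 2 positive and 0 negative, and 0.04 in 17 libraries.

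**Figure D3:**
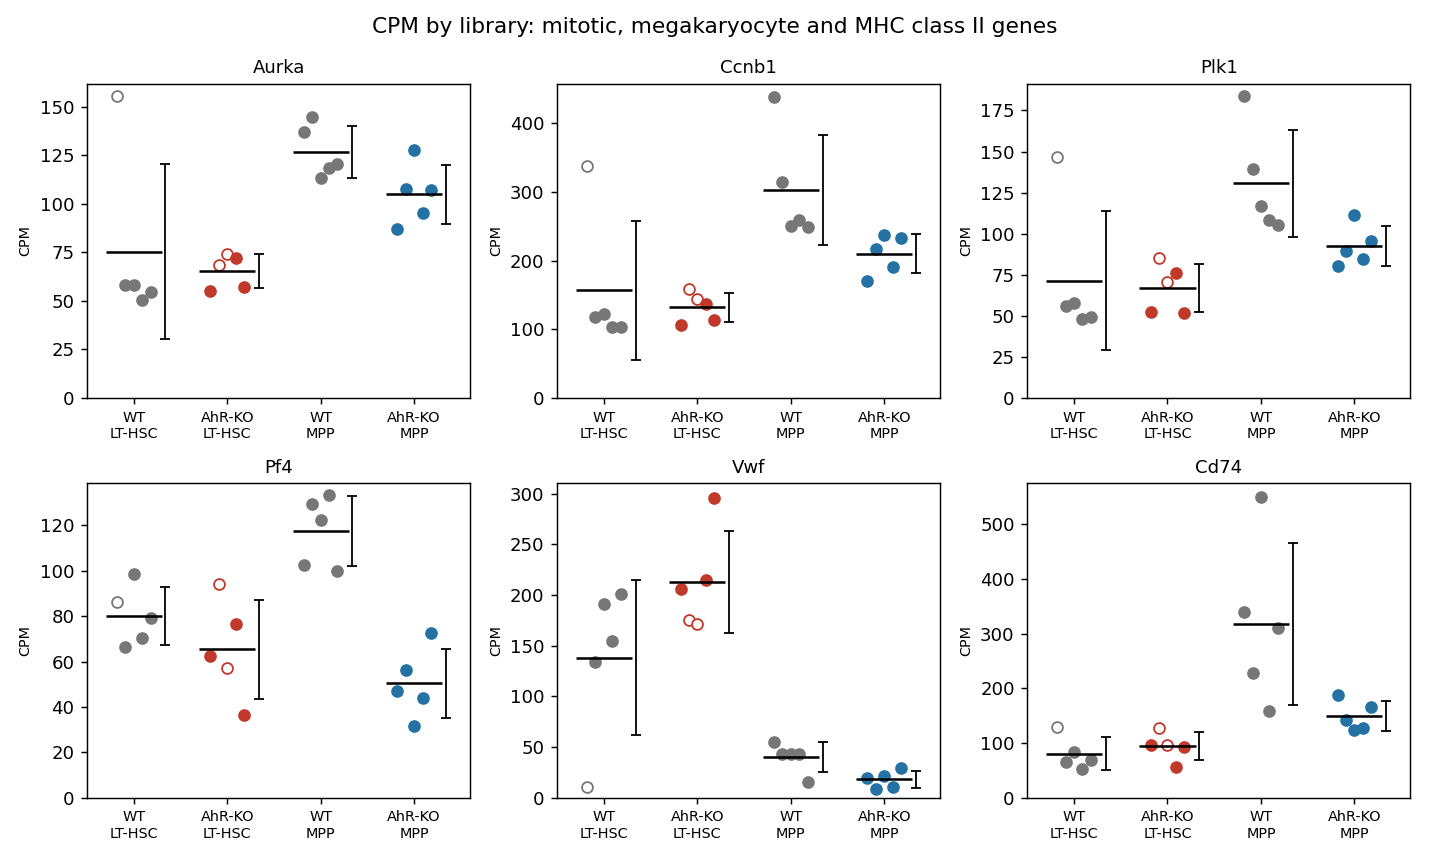
CPM by library of the mitotic genes Aurka, Ccnb1 and Plk1, the megakaryocyte-associated genes Pf4 and Vwf and the MHC class II chaperone gene Cd74; points are libraries, open points the 3 LT-HSC libraries left out in the repeat, bars the mean and whiskers 1 SD (n = 5). WT LT-HSC replicate 1 is the highest LT-HSC library of the 3 mitotic genes and the lowest of Vwf.

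Megakaryocyte and platelet genes had lower fold changes in MPP than in LT-HSC with either set of libraries. Of 24 tested, 6 had a positive interaction (25.0%, against 51.9% of all genes), and the median was -0.39. At an unadjusted p under 0.05, 7 were negative and 0 positive, against 2.66% and 3.8% of all genes. With 17 libraries 2 were positive (8.33%, against 50.3% of all genes), and the median was -0.45. At that level 7 were negative, against 2.16% of all genes. The median fold change was -0.04 in LT-HSC and -0.42 in MPP. Pf4, a chemokine of platelet granules, had 86.4, 66.3, 98.5, 70.5 and 79.1 CPM in WT LT-HSC, 62.6, 94.3, 57.2, 76.7 and 36.2 CPM in LT-HSC labelled AhR-KO, 103, 129, 122, 133 and 99.9 CPM in WT MPP and 47.1, 56.4, 31.8, 44.1 and 72.7 CPM in MPP labelled AhR-KO. All MPP libraries labelled AhR-KO were below all WT MPP libraries, while the LT-HSC genotypes overlapped. Its fold change in MPP was -1.22 ± 0.22 (adjusted p = 0.0593) and in LT-HSC -0.29 ± 0.22, and the MPP value was called with 17 libraries (-1.22, adjusted p = 0.0314). In 20 libraries these gave an interaction of -0.93 ± 0.31 (adjusted p = 0.588).

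Vwf, the von Willebrand factor of platelets and of platelet-primed stem cells, had 10.99, 134, 191, 155 and 201 CPM in WT LT-HSC and 206, 175, 171, 214 and 296 CPM in LT-HSC labelled AhR-KO. In MPP it had 55.4, 42.8, 43.4, 43.1 and 15.2 CPM in WT and 19.3, 8.65, 21.97, 10.97 and 29.8 CPM in those labelled AhR-KO. WT LT-HSC replicate 1 was the one low LT-HSC library, and the interaction was -1.76 ± 0.69 in 20 libraries and -1.62 ± 0.49 in 17 (adjusted p = 0.549). Itgb3, the integrin subunit of the platelet fibrinogen receptor, had -1.36 ± 0.49, and -1.01 ± 0.37 in 17 libraries. Its WT LT-HSC replicate 1 was also low, at 13.4 CPM against 64.2 to 86.0 CPM in the rest of its group. The fold change of Itgb3 in LT-HSC was 0.21 in 20 libraries and -0.14 in 17. Gp1bb, a subunit of the receptor for von Willebrand factor, had -1.03 ± 0.37, and Thbs1, thrombospondin, -3.12 ± 1.09. Gfi1b, a transcription factor of the erythroid and megakaryocyte lineages, had -0.43 ± 0.21 and -0.58 ± 0.17 in 17 libraries. Fli1, a transcription factor of the megakaryocyte lineage, was near 0 at 0.02 ± 0.15. The summed level of the 24 genes was 3730 to 4486 CPM in WT LT-HSC, 3310 to 4175 CPM in LT-HSC labelled AhR-KO, 1570 to 2111 CPM in WT MPP and 1384 to 2054 CPM in MPP labelled AhR-KO.

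**Figure D4:**
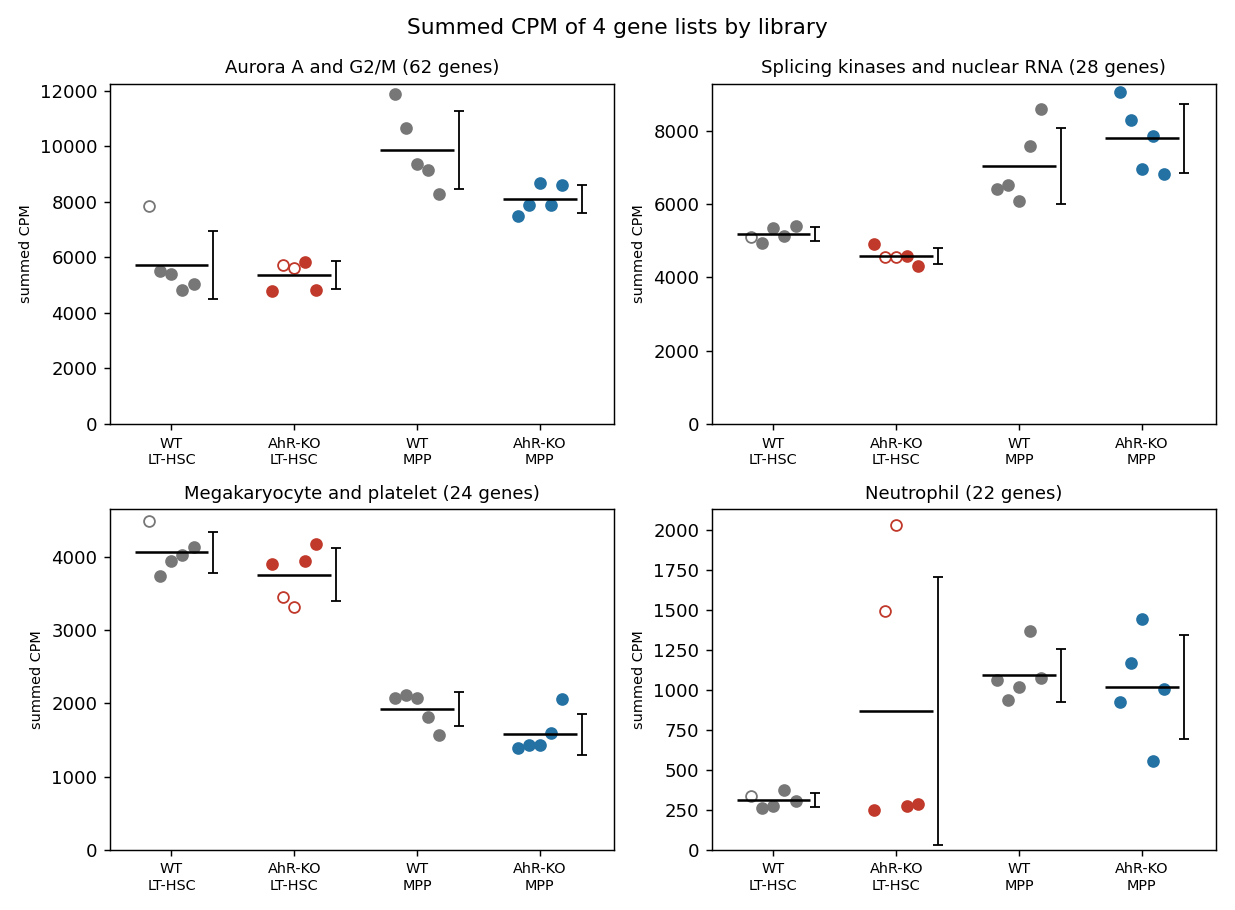
Summed CPM by library of 4 gene lists in the 4 groups; points are libraries, open points the 3 LT-HSC libraries left out in the repeat, bars the mean and whiskers 1 SD (n = 5). The splicing and nuclear RNA sum was lower in LT-HSC labelled AhR-KO, the G2/M sum was high in WT LT-HSC replicate 1, and the neutrophil sum was high in AhR-KO LT-HSC replicates 2 and 3.

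MHC class II genes, which present antigen to CD4 T cells, had a negative median interaction, further from 0 without the LT-HSC libraries that stand apart. Of 10 tested, 3 were above 0 (51.9% of all genes were) and 7 below, and the median was -0.43. An unadjusted p under 0.05 was found for 3, all negative, against 2.66% of all genes that were negative at that level. With 17 libraries all 10 were below 0 (50.3% of all genes were above), and the median was -0.83. At that level 6 were negative, against 2.16% of all genes. Without WT LT-HSC replicate 1 alone the median was -0.76, in the 14 libraries with a shared number it was -0.14, and without WT MPP replicate 1 it was -0.29. Cd74, the chaperone of the class II molecule, had 130.04, 65.2, 83.8, 52.00000 and 69.5 CPM in WT LT-HSC, 95.7, 128, 96.5, 55.8 and 93.4 CPM in LT-HSC labelled AhR-KO, 339.8, 229, 549.5, 159 and 311 CPM in WT MPP and 189, 143, 125, 128 and 165 CPM in MPP labelled AhR-KO. Its LT-HSC genotypes overlapped, and in MPP 4 of 5 WT libraries were above all those labelled AhR-KO. Its interaction was -1.31 ± 0.40 (adjusted p = 0.553), that of H2-Eb1 -1.24 ± 0.51 and that of H2-Aa -0.90 ± 0.43. Cd74 had -0.86 with the replicate block. B cells also express these genes, and the sum of 20 B cell genes lay between 1110 and 5017 CPM in WT MPP and between 678 and 1569 CPM in MPP labelled AhR-KO. For immunoglobulin genes the sums were 12499 to 65633 CPM and 3414 to 14997 CPM. WT MPP replicate 3 held the highest of both sums and of Cd74. Immunoglobulin genes made up 6.13% of its counts, against 1.27% to 1.95% in the rest of its group. The part of B cell transcripts in the class II values was not tested.

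Stem cell identity genes differed among themselves and not as a list. Of 28 tested, 20 were positive (71.4%, against 51.9% of all genes), and the median was 0.09, or 0.00 with 17 libraries. At an unadjusted p under 0.05, 2 were positive and 2 negative, against 3.8% and 2.66% of all genes. Hoxa9, a homeobox factor of stem and progenitor cells, had fold changes of -0.65 ± 0.14 in LT-HSC and 0.02 ± 0.14 in MPP and an interaction of 0.67 ± 0.20 (adjusted p = 0.553). It was 0.40 with 17 libraries. Procr had 0.61 ± 0.21 (adjusted p = 0.598), and 0.27 without the 3 LT-HSC and the 3 MPP libraries named above. Ly6a, which encodes the surface antigen Sca-1, had -0.76 ± 0.26 (adjusted p = 0.598), with 101 ± 20.1 CPM in LT-HSC labelled AhR-KO against 67.1 ± 8.73 CPM in WT LT-HSC and 70.5 ± 12.1 against 79.6 ± 25.3 CPM in MPP. Flt3 had -0.33 ± 0.22 and Cd34 0.00 ± 0.17.

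Among cytokine receptors, Csf3r, the receptor for G-CSF, was called in LT-HSC only, and its interaction did not pass the threshold. It had 46.4, 68.5, 69.3, 70.2 and 75.6 CPM in WT LT-HSC, 110.2, 126, 134, 139 and 117 CPM in LT-HSC labelled AhR-KO, 278, 241, 269, 219 and 207 CPM in WT MPP and 320.5, 289.8, 293, 353 and 287 CPM in MPP labelled AhR-KO. The genotypes did not overlap in LT-HSC or in MPP. It rose by 0.92 ± 0.12 in LT-HSC labelled AhR-KO (adjusted p = 0.0019), its fold change in MPP was 0.35 ± 0.12 (adjusted p = 0.57), and the interaction was -0.58 ± 0.17 (adjusted p = 0.515). Of the 30 receptors tested, 1 was positive (Il11ra1, 0.54 ± 0.21) and 1 negative (Csf3r) at an unadjusted p under 0.05. These counts were near the shares over all genes, 3.8% positive and 2.66% negative.

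Medians of the stress and housekeeping lists given here ran from -0.40 to 0.39 in 20 libraries, and some moved with single libraries. Of 26 genes of the integrated and unfolded protein stress responses, 2 were positive and 2 negative at an unadjusted p under 0.05, with a median of -0.11. Over all genes 3.8% were positive and 2.66% negative at that level, or 4.2% and 2.16% with 17 libraries. Trib3, a pseudokinase induced by ATF4, had 51.8, 26.8, 15.6, 25.6 and 20.6 CPM in WT LT-HSC, 18.9, 18.3, 16.7, 25.5 and 29.8 CPM in LT-HSC labelled AhR-KO, 3.89, 4.04, 3.89, 4.25 and 2.54 CPM in WT MPP and 9.55, 8.14, 8.36, 5.81 and 8.002 CPM in MPP labelled AhR-KO. In MPP all libraries labelled AhR-KO were above all WT libraries, and in LT-HSC WT replicate 1 was the highest of all. The interaction was 1.46 ± 0.37 (adjusted p = 0.405), and 0.94 ± 0.30 with 17 libraries. Asns, asparagine synthetase and likewise a target of ATF4, had the opposite sign at -0.80 ± 0.34 (adjusted p = 0.741), and -0.53 without AhR-KO LT-HSC replicates 2 and 3. The 22 immediate early genes had a median of 0.39, with 17 above 0 (77.3%, against 51.9% of all genes). At that level 1 was positive and 0 negative. With 17 libraries the median over 23 genes was 0.39. In 20 libraries it fell to 0.12 without WT LT-HSC replicate 8 and to 0.21 without AhR-KO MPP replicate 4. The 43 interferon-stimulated genes had a median of -0.01, with 0 positive and 1 negative, and -0.23 with 17 libraries, with 0 positive and 5 negative. The 84 cytosolic ribosomal protein genes had nearly equal median fold changes, 0.20 in LT-HSC and 0.21 in MPP, and a median interaction of 0.01. For 60 histone cluster genes the median was 0.19 (48 above 0, or 80.0%, against 51.9% of all genes), and 0.07 without AhR-KO MPP replicate 4. The 13 mitochondrially encoded genes, 0 of them above 0, had a median of -0.40, and -0.20 with 17 libraries. It was -0.19 without WT LT-HSC replicate 1, the library with few such counts.

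**Figure D5:**
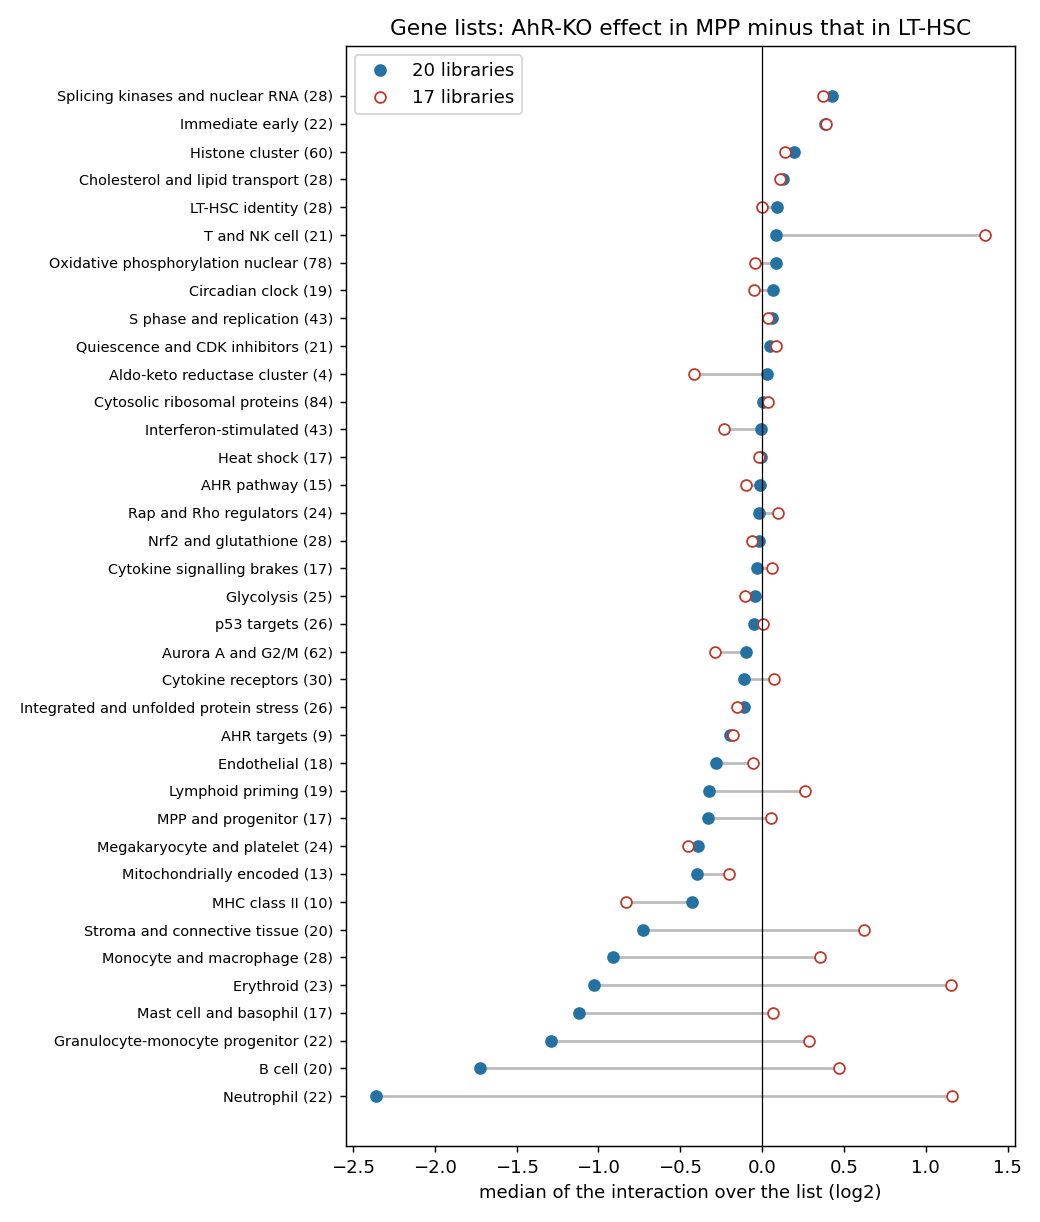
Median interaction (log2, AhR-KO effect in MPP minus that in LT-HSC) of the 37 gene lists, with the number of genes tested in 20 libraries in brackets; filled points are 20 libraries and open points 17. The splicing list kept a median of 0.43 and 0.37, while the neutrophil list went from -2.36 to 1.16.

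Most lists of other cell types in this paragraph changed sign with the libraries, and no direction is given for any of them. The median of 22 neutrophil genes was -2.36 in 20 libraries and 1.16 in 17. It was -1.72 and 0.47 for 20 B cell genes, -1.03 and 1.15 for 23 erythroid genes, -0.91 and 0.35 for 28 monocyte and macrophage genes, and -1.29 and 0.29 for 22 genes of granulocyte-monocyte progenitors. The sign did not change for T and NK cells, where the median was 0.09 for 21 genes and 1.36 for the 22 tested in 17 libraries. Of these 22, 8 were positive at an unadjusted p under 0.05, against 4.2% of all genes. For 20 genes of stroma and connective tissue the median was -0.73 and 0.62. Ltf, the granule protein lactoferrin, had 0.203, 125, 264, 0.686 and 0.727 CPM in LT-HSC labelled AhR-KO, so that replicates 2 and 3 alone held more than 1 CPM. Its interaction was -7.03 ± 1.89 in 20 libraries (adjusted p = 0.492) and 0.39 ± 0.96 in 17. Sparc, a matrix protein of stroma, had 352 CPM in AhR-KO LT-HSC replicate 3 and at most 14.004 CPM in the other LT-HSC libraries labelled AhR-KO. Its interaction was -4.84 in 20 libraries and 0.18 in 17.

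Of the genes called in both populations, Garnl3 was so with either set of libraries, and Akr1c12 with 20 only. Garnl3, which holds a GTPase-activating domain for Rap, had 0.951, 2.67, 2.19, 2.21 and 2.88 CPM in WT LT-HSC, 19.8, 22.7, 13.9, 28.8 and 31.7 CPM in LT-HSC labelled AhR-KO, 0.478, 0.847, 1.31, 1.56 and 1.16 CPM in WT MPP and 6.95, 12.9, 3.72, 12.9 and 17.4 CPM in MPP labelled AhR-KO. The genotypes did not overlap in either population. It rose by 3.42 ± 0.40 in LT-HSC (adjusted p = 0.000787) and 3.31 ± 0.41 in MPP (adjusted p = 0.00195) on the log2 scale. The interaction was -0.10 ± 0.56, with a 95% interval of -1.27 to 1.06, which leaves room for differences in either direction. Akr1c12, an aldo-keto reductase, had 23.02, 15.8, 11.5, 17.2 and 15.6 CPM in WT LT-HSC, 8.22, 4.60, 8.07, 9.56 and 6.48 CPM in LT-HSC labelled AhR-KO, 13.5, 14.2, 12.9, 13.2 and 17.7 CPM in WT MPP and 6.95, 5.48, 6.27, 5.41 and 4.91 CPM in MPP labelled AhR-KO. It fell by 1.17 ± 0.20 in LT-HSC (adjusted p = 0.0377) and by 1.30 ± 0.20 in MPP (adjusted p = 0.0137), with an interaction of -0.13 ± 0.27 (95% interval -0.71 to 0.44). With 17 libraries its LT-HSC fold change was -0.89 and no longer called (adjusted p = 0.160), and the interaction was -0.41 ± 0.25.

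Apoe, a lipoprotein that carries cholesterol, had 193 ± 13.1 CPM in WT MPP and 309.8 ± 40.5 CPM in MPP labelled AhR-KO, and 604 ± 176 and 767 ± 44.1 CPM in WT and AhR-KO LT-HSC. Its fold changes were 0.34 ± 0.13 in LT-HSC (adjusted p = 0.466) and 0.68 ± 0.14 in MPP (adjusted p = 0.103). With 17 libraries it was called in both, at 0.59 (adjusted p = 0.0308) and 0.68 (adjusted p = 0.000903). Its WT LT-HSC replicate 1 held 916 CPM against 500.3 to 555 CPM in the rest, and the interaction was 0.33 ± 0.19 (95% interval -0.06 to 0.73) in 20 libraries and 0.09 ± 0.12 in 17. Arhgef25, a guanine nucleotide exchange factor, was called in MPP. It had 5.61, 5.80, 5.96, 6.47 and 8.59 CPM in WT LT-HSC, 8.43, 7.77, 8.59, 11.9 and 7.51 CPM in LT-HSC labelled AhR-KO, 3.48, 5.98, 2.46, 3.47 and 4.52 CPM in WT MPP and 15.5, 12.7, 13.1, 12.5 and 9.62 CPM in MPP labelled AhR-KO. All MPP libraries labelled AhR-KO were above all WT libraries, while the LT-HSC genotypes overlapped. It rose by 1.67 ± 0.22 in MPP (adjusted p = 0.00237), its fold change in LT-HSC was 0.44 ± 0.21 (adjusted p = 0.564), and the interaction was 1.22 ± 0.30 (adjusted p = 0.382; 95% interval 0.59 to 1.85).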

How the data were processed

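RNA of the 20 libraries was analysed from the raw counts per gene symbol that the authors deposited, in 2 tables of 49568 genes with the same symbols in the same order. Per the submitters' processing notes, the tools were Trimmomatic 0.36, STAR 2.5.2b, Subread 1.5.0p3 with featureCounts and DESeq2 1.12.4, on GRCm38.p5. Settings and annotation were not given in the sources used here. In part, the labels' protocol speaks of DC samples and a number of samples per group that do not match these cells. Of the symbols, 26 read as dates and stayed under those names. Coordinates are from GENCODE M21 (GRCm38).

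The test was the edgeR 4.0.16 quasi-likelihood F test (R 4.3.3, filterByExpr, TMM, robust, two-sided), adjusted over all genes tested by Benjamini-Hochberg and called at an adjusted p under 0.05. Depth was 13712668 to 21622653 counts per library, and the common biological coefficient of variation was 33.8% with 20 libraries and 28.4% with 17. The reads carry no molecular identifiers, and the spread between libraries sets the precision. Code was tested on simulated data.

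The comparison and the 37 gene lists were chosen with earlier results of these data known. Named were 10 genes whatever their result, the 7 smallest p of each sign among genes averaging 5 CPM or more (5 of each sign with 17 libraries), predicted and immunoglobulin genes left out, the 2 smallest p of each list, and list members for their values. Ankrd16, Akap8l, Rrnad1, Tagap1 and, in the closing section, Hk3 and Fgfbp3 were named after their values were seen.

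Alternatives were DESeq2 1.42.0, limma 3.58.1 voom with quality weights, DESeq2 size factors, no filter, a filter of 5 CPM in 5 libraries, a fold of at least 1.5, 1 surrogate variable (sva 3.50.0), a replicate block, and libraries left out. The fit without the block on the libraries of the block, and leaving out single libraries from the 17, were chosen after seeing the data.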

Additional observations from a re-analysis of the deposited data

Results flagged for a closer look

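Among 308 groups of 5 libraries of the 77 genes examined, 28 held a library whose gap to its nearest neighbour took up most of the group's range (above 0.710 of it). Chance flags about 1 in 20 such groups where values are normal and groups independent. These are CPM of genes partly chosen by their values in the same libraries, so the 28 cannot be weighed against that rate. WT LT-HSC replicate 1 accounted for 15 of the 28.

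In that library the mitotic genes Aurka (155.5 CPM, others 50.5 to 58.3), Ccnb1 (337 CPM), Cdk1 (138 CPM) and Plk1 (147 CPM) were highest of their group. So were Apoe (916 CPM), Spns3 (66.3 CPM), H2-Aa (66.2 CPM), H2-Ab1 (128 CPM, others 38.2 to 49.0), Asns (83.1 CPM), Hoxa9 (117 CPM) and Fgfbp3 (29.6 CPM). In the same library Ccnl1 (75.3 CPM, others 123 to 129), Rgl2 (34.1 CPM), the microtubule polymerase gene Ckap5 (52.5 CPM) and Csf3r (46.4 CPM) were lowest.

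In WT MPP replicate 5 Akr1c12 (17.7 CPM) and Ung (12.3 CPM) were highest, and Gp1bb (7.01 CPM) and Trib3 (2.54 CPM) lowest. In AhR-KO LT-HSC replicate 4 Arhgef25 (11.9 CPM) and Acap1 (227 CPM) were highest. Single libraries stood apart for Arhgef25 in WT LT-HSC replicate 8 (8.59 CPM), Pkmyt1 in WT LT-HSC replicate 6 (32.5 CPM), Timp3 in AhR-KO LT-HSC replicate 1 (55.3 CPM) and Sparc in AhR-KO LT-HSC replicate 3 (352 CPM). The others were Spns3 in AhR-KO MPP replicate 1 (99.8 CPM), Asns in AhR-KO MPP replicate 4 (13.8 CPM, others 37.4 to 39.5) and Hk3 in WT MPP replicate 1 (297 CPM).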

How the results depend on the processing

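The count of genes called for the interaction by edgeR was 0 in all alternatives with 20 libraries that kept edgeR, and with each single library left out (0 to 0). DESeq2 called 51 and limma voom 18. With 17 libraries DESeq2 called 49, voom 0, and leaving out single libraries gave 0 to 1, the 1 without AhR-KO MPP replicate 4.

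The replicate block, on the 14 libraries whose genotype and number occur in both populations, called 0 genes, with 773 at an unadjusted p under 0.05 against 975 without the block on the same libraries. With the 3 LT-HSC libraries left out these were 1129 and 1188. Same-numbered LT-HSC and MPP libraries, 7 pairs, had correlations of their deviations from group means of -0.0596 to 0.0301 in WT and 0.0147 to 0.179 in AhR-KO. Differently numbered libraries had -0.102 to 0.108 in WT and -0.169 to 0.122 in AhR-KO. The numbers were not taken to pair the libraries, but these values do not settle whether animals were shared.

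Of 2463 values of 77 named genes under alternatives, 2410 kept their direction and side of the threshold, 27 passed it (all with DESeq2 or voom) and 26 changed sign, the cause of which was not tested. Aurka was 0.15 in the libraries of the block without the block, 0.012 without AhR-KO LT-HSC replicates 2 and 3, and -0.51 to 0.030 with single libraries left out. Garnl3 was 0.016 with a surrogate variable and -0.36 to 0.11 with single libraries left out. Clec2i was -0.99 with the block, -1.99 without it on the same libraries and -0.44 to 0.96 with single libraries left out. Cdkn1a was -0.0090 without the block on the same libraries. Without the 3 LT-HSC libraries, without AhR-KO LT-HSC replicates 2 and 3, and without the 3 LT-HSC and 3 MPP libraries, Ltf was 0.39, 0.13 and 0.29 and Camp 0.77, 0.63 and 0.66. Sparc was 0.18 without the 3 LT-HSC libraries and 0.23 without the 3 LT-HSC and 3 MPP libraries. Of 925 list medians under alternatives, 81 moved by more than 1 SD of the mean log2 level of the list between libraries of a group.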
